A study of Homo sapiens with 20 samples.

Results

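Nonsense-mediated decay removes mRNAs whose translation stops too early, and 9 of its factors were described here across 10 mRNA libraries: UPF1, UPF2, UPF3A, UPF3B, SMG1, SMG5, SMG6, SMG8 and SMG9. They were taken by gene name from the 58735 genes in the files, which hold exactly 1 row for each. The series compared cells exposed to e-cigarette aerosol (5 libraries) with cells exposed to filtered air (5 libraries). Both groups were AC16 cells, an established human line made by fusing ventricular heart cells with transformed fibroblasts, held at an air–liquid interface during exposure so that gas met them from above. No genetic change or further agent is given for either group. The series design gives the 5 samples of a group as biological replicates, and the labels state no make-up, dose or duration of the aerosol.

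In the pathway, UPF1 is the RNA helicase that marks an mRNA for decay, and UPF2 with UPF3A or UPF3B links it to the exon junction complex, a protein mark left where introns were removed. The kinase SMG1, held in check by its partners SMG8 and SMG9, phosphorylates UPF1, and phosphorylated UPF1 binds SMG6, an endonuclease, or SMG5, through which decapping and deadenylation enzymes are brought in. The pathway also limits many normal transcripts, among them spliced host RNAs of small nucleolar RNAs and, as a known feedback, the mRNAs of several of its own factors.

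Gene counts summed to between 60482726 and 72099157 in the aerosol libraries and to between 65902331 and 88806394 in the filtered air libraries. Principal component 1 of log2 CPM (28.6% of the variance) set aerosol libraries 4 and 5 apart, at 82.2 and 206, with the other 8 between -50.7 and 1.11. The nuclear lncRNA MALAT1 and the percentage of counts on mitochondrially encoded genes were highest in the same 2 libraries. MALAT1 had 7486, 7673, 10538, 16390 and 44762 CPM in aerosol libraries 1 to 5, against 2797 to 3765 CPM in filtered air. The mitochondrial share was 12.4 to 19.5% in the aerosol libraries and 7.75 to 10.3% in filtered air. Of 15 cardiomyocyte markers, 8 had no count in any library, among them TNNT2, MYH7 and NKX2-5, and only GATA4 averaged above 1 CPM. The 15 summed to 9.18 to 19.6 CPM in the aerosol libraries and to 8.02 to 23.0 CPM in filtered air. Of 10 fibroblast markers all were detected, 1 rose (FAP) and 1 fell (VIM), and their sum was 6041 to 6848 CPM in the aerosol libraries and 7988 to 8684 CPM in filtered air. Endothelial, epithelial and leukocyte markers summed to 1.13 to 3.71, 129 to 149 and 33.2 to 55.0 CPM in the aerosol libraries, and to 1.23 to 1.94, 176 to 266 and 35.5 to 60.4 CPM in filtered air. In the test described below, KRT18 of the epithelial markers fell by 0.67 on the log2 scale (edgeR adjusted p = 0.0136). No cardiomyocyte, endothelial or leukocyte marker rose or fell. The part of these differences in the results that follow was not tested.

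The promoters of 4 factors are shown because these carry the differences described next: UPF1, which fell, UPF2, which rose, and UPF3B and SMG1, whose aerosol libraries all lay above all filtered air libraries without passing the test. Each window runs from 250 bases before to 50 after the gene's start in RefSeq (GRCh38.p14), reads in the direction of the gene, and is 300 bases long. Capitals mark matches on either strand to the GC box GGGCGG, the CCAAT box CCAAT or the E-box CACGTG, and GC boxes can overlap each other.
UPF1 (chr19:18831709-18832008, plus strand): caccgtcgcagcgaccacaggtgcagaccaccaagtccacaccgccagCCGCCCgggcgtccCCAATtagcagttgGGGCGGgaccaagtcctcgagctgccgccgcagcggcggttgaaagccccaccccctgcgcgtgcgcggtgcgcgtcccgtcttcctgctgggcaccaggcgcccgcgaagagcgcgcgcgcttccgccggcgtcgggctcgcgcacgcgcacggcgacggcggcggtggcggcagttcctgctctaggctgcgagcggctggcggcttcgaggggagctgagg
UPF2 (chr10:12043121-12043420, minus strand): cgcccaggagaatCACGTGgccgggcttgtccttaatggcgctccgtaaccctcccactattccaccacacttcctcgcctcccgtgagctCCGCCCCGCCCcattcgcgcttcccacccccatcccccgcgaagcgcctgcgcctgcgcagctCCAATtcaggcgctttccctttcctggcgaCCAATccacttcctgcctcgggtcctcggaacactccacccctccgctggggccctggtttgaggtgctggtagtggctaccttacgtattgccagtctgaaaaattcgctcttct
UPF3B (chrX:119852914-119853213, minus strand): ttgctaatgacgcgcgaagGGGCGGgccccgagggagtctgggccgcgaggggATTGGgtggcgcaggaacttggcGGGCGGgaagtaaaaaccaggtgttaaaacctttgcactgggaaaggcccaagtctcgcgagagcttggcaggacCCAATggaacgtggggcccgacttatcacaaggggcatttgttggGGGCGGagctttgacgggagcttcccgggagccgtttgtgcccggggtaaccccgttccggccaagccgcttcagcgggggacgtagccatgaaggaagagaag
SMG1 (chr16:18926359-18926658, minus strand): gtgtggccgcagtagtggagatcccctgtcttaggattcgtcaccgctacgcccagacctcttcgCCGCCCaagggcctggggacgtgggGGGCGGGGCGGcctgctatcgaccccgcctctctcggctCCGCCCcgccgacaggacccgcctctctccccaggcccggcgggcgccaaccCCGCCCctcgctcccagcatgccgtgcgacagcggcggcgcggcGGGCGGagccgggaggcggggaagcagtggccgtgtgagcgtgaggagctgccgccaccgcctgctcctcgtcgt
The GC box was found in all 4, with 2 matches in UPF1, 2 in UPF2, 3 in UPF3B and 6 in SMG1, and in 44.95% of the 35116 promoter windows of the RefSeq table. The CCAAT box was found in UPF1, UPF2 and UPF3B and in 34.6% of all windows. The E-box was found in UPF2 alone among the 4, and in 7.26% of all windows. The TATA box TATAAA and the cyclic AMP response element TGACGTCA, present in 11.5% and 1.85% of all windows, were found in none of the 8 factors with an entry. The ETS motif CCGGAAG (10.3% of windows) was found only in UPF3A among the 8. The 8 windows were 62.7 to 78.3% G and C, against a median of 58.7% over all windows, with the lowest value in UPF2 and UPF3B and the highest in SMG6. SMG8 was not matched. A match is a string of letters and not a measured binding site.

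After the aerosol the decay factors did not move in a common direction. UPF1 fell and UPF2 rose. UPF3B had the largest log2 fold change of the 9, 1.04 ± 0.27 (standard error), and missed the threshold, as did SMG1. SMG6 and SMG9 lay near 0. All 9 passed the filter on low counts, with at least 1275 counts in every library, and 2 passed the test (quasi-likelihood test of edgeR, with p adjusted by Benjamini-Hochberg over 20166 genes, called under 0.05). Over all genes tested, 608 changed (3.01%), 327 upwards (1.62%) and 281 downwards (1.39%). The median log2 fold change was 0.10 over the 9 factors, with 6 above 0 and 3 below, and -0.0042 over all genes tested. All 5 aerosol libraries lay above all 5 filtered air libraries for UPF2, UPF3B and SMG1, which is 3 of 9 factors against 3.52% of all genes tested. No factor had all aerosol libraries below, against 3.93% of all genes tested, and 7.45% of all genes did not overlap in either direction. In bulk RNA, fewer cells with a transcript and less of it per cell cannot be told apart. Values are CPM, counts scaled to library size after its adjustment by the TMM factor that edgeR gives each library. They therefore differ from values under library-size scaling alone. CPM are compared only within a gene, since transcript lengths are not in the files.

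How many factors passed depended on the settings, and so did the share of all genes called. DESeq2 called 5 factors, UPF1, UPF2, UPF3A, UPF3B and SMG1, with 7.92% of all genes. A filter of 1 CPM in 5 libraries gave 4 (5.09% of all genes), as did an adjusted p under 0.1 (6.02%), in both cases UPF1, UPF2, UPF3B and SMG1. RLE scaling, limma-voom and the genes with a known genomic span gave UPF1, UPF2 and SMG1, with 2.96%, 3.34% and 3.29% of all genes. Upper-quartile scaling gave UPF2, UPF3B and SMG1 (3.24%), the protein-coding genes alone gave UPF2 and SMG1 (3.09%), and leaving out the filter gave UPF1 and UPF2 (1.59%), as did the replicate block (2.23%). UPF2 alone passed with library-size scaling (2.79%) and after removal of a trend on genomic span (2.09%). None passed at an adjusted p under 0.01 (0.431%) or without aerosol libraries 4 and 5 (1.87%, edgeR), where 4 of 9 factors and 16.0% of all genes had an unadjusted p under 0.05. UPF2 lost its call only at the stricter threshold and without aerosol libraries 4 and 5 together, or without 1 of the 7 single libraries given with its values.

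**Figure D1:**
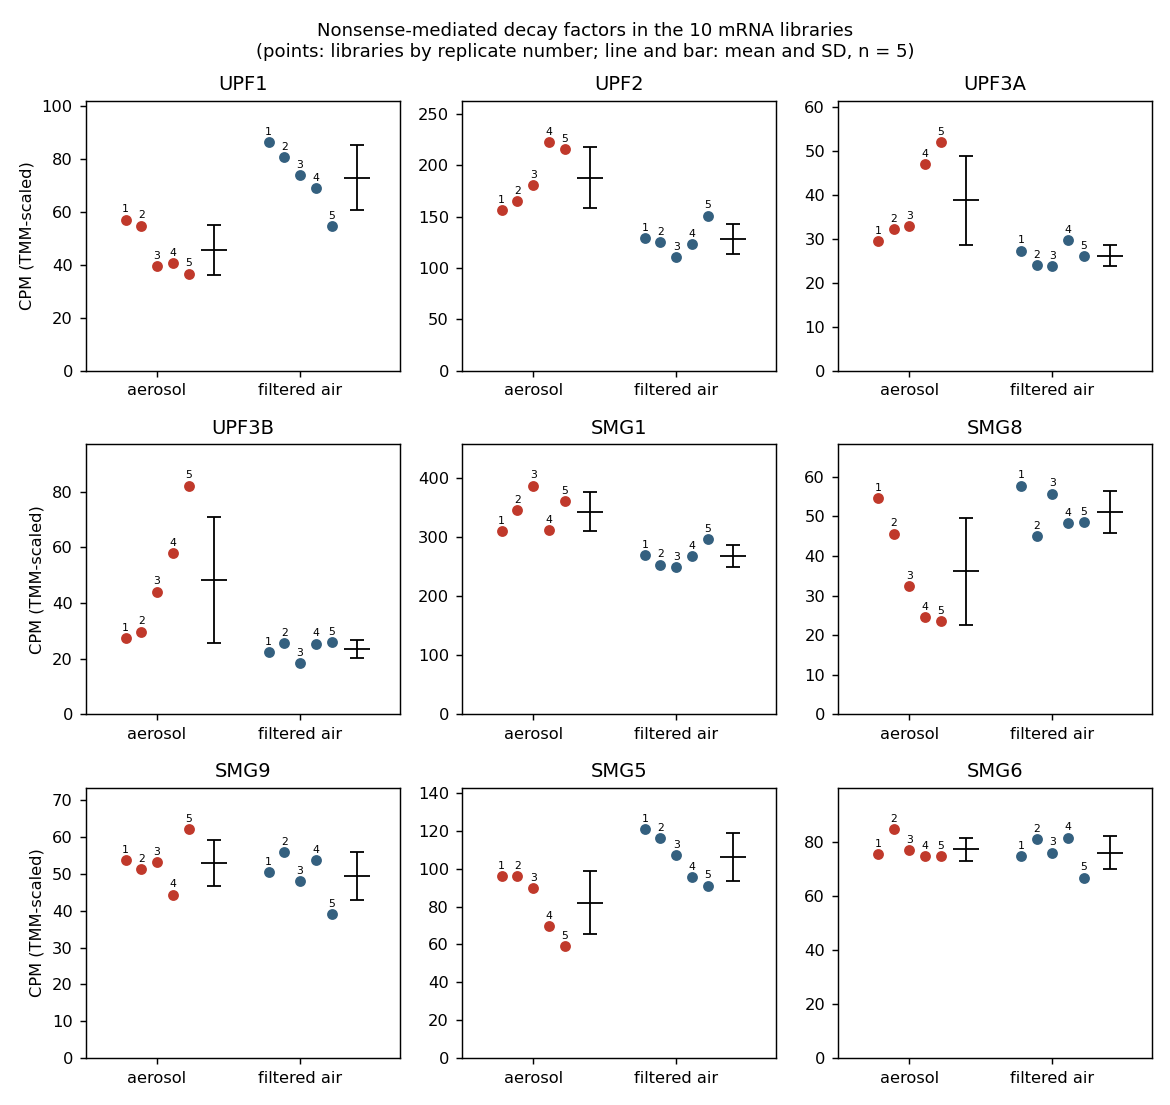
CPM of each of the 9 decay factors (y axis, from 0) in the 5 e-cigarette aerosol libraries (left, red) and the 5 filtered air libraries (right, blue), with the replicate number above each point and the mean and SD beside each group. For UPF2, UPF3B and SMG1 every aerosol point lies above every filtered air point, and for UPF1 aerosol libraries 1 (57.1 CPM) and 2 (54.8 CPM) lie above the lowest filtered air library (54.5 CPM).

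UPF1, the helicase at the centre of the pathway (chromosome 19, 18831959 to 18868230), had 57.1, 54.8, 39.5, 40.5 and 36.7 CPM in aerosol libraries 1 to 5, against 86.4, 80.7, 73.8, 68.9 and 54.5 CPM in filtered air libraries 1 to 5. The groups overlapped only through aerosol libraries 1 and 2 and filtered air library 5, the lowest of its group. UPF1 averaged 45.7 ± 9.47 CPM after the aerosol and 72.8 ± 12.2 CPM in filtered air (SD, n = 5 each). It fell by 0.67 on the log2 scale (standard error 0.16, edgeR adjusted p = 0.0446). Without aerosol libraries 4 and 5 its log2 fold change was -0.54 with an edgeR adjusted p of 0.126. The call was also lost without aerosol library 3, 4 or 5 alone and without filtered air library 1, 2, 3 or 4, with an edgeR adjusted p of up to 0.118. In these fits 0.879 to 2.27% of all genes were called, against 3.01% with all libraries. Without single libraries the log2 fold change of UPF1 was -0.77 to -0.61. Its call was lost as well with upper-quartile (0.0608) or library-size scaling (0.0644), among protein-coding genes (0.0556), and after removal of the span trend (0.0686).

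UPF2, the adaptor that binds UPF1 and stimulates its helicase (chromosome 10, 11920022 to 12043170), had 156, 165, 180, 222 and 216 CPM in aerosol libraries 1 to 5, against 129, 125, 111, 123 and 151 CPM in filtered air libraries 1 to 5. The groups did not overlap, and filtered air library 5 came nearest to the aerosol libraries. UPF2 averaged 188 ± 29.8 CPM after the aerosol and 128 ± 14.6 CPM in filtered air (SD, n = 5 each). It rose by 0.56 ± 0.12 on the log2 scale (standard error, edgeR adjusted p = 0.0304). Without aerosol libraries 4 and 5 the log2 fold change was 0.38 with an edgeR adjusted p of 0.0961. The call was lost without the same single libraries as for UPF1, with an edgeR adjusted p of up to 0.0982, and it held under each other scaling. In those fits without a library 0.879 to 2.27% of all genes were called. Without single libraries the log2 fold change of UPF2 was 0.48 to 0.62.

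Because both moved in opposite directions, the counts of UPF2 per count of UPF1 differed further. There were 2.73, 3.01, 4.56, 5.49 and 5.88 UPF2 counts per UPF1 count in aerosol libraries 1 to 5, against 1.49, 1.55, 1.502, 1.79 and 2.77 in filtered air libraries 1 to 5. Filtered air library 5, which had the lowest UPF1 and the highest UPF2 of its group, reached just above aerosol library 1. The mean log2 ratio was higher by 1.23 after the aerosol, at 2.05 ± 0.50, against 0.82 ± 0.38 in filtered air (SD, n = 5 each, exact two-sided permutation test over 252 assignments, p = 0.0159, adjusted p = 0.0317 over the 4 ratios compared, with a smallest possible p of 0.00794). A ratio within a library does not depend on the scaling between libraries. Without aerosol libraries 4 and 5 the difference was 0.92 (exact permutation p = 0.0357, adjusted p = 0.143). That comparison has fewer possible assignments, so its smallest possible p is higher than with all libraries. Without single libraries the ratio passed in 6 of 10 cases and was lost without aerosol library 5 or filtered air library 1, 2 or 3, with a difference of 1.10 to 1.39 throughout.

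The UPF3 paralogs carry UPF2 to the exon junction complex. UPF3B, on the X chromosome (119805311 to 119852963) and the more active of the pair in decay, had 27.5, 29.8, 44.1, 58.0 and 82.2 CPM in aerosol libraries 1 to 5, against 22.4, 25.5, 18.5, 25.4 and 25.9 CPM in filtered air libraries 1 to 5. The groups did not overlap, but aerosol libraries 1 and 2 lay just above filtered air while libraries 4 and 5, those with the most MALAT1, lay far above it. UPF3B averaged 48.3 ± 22.6 CPM after the aerosol and 23.5 ± 3.14 CPM in filtered air (SD, n = 5 each), with a 95% interval of the log2 fold change from 0.46 to 1.61 and an edgeR adjusted p of 0.0551. Without aerosol libraries 4 and 5 its log2 fold change was 0.51 (edgeR adjusted p = 0.177). It passed without aerosol library 1 (edgeR adjusted p = 0.0261) or 2 (0.0332).

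UPF3A, the weaker activator (chromosome 13, 114281601 to 114305817), had 29.5, 32.2, 33.0, 47.0 and 52.0 CPM in aerosol libraries 1 to 5, against 27.3, 24.0, 23.8, 29.8 and 26.2 CPM in filtered air libraries 1 to 5. Only aerosol library 1 reached into the filtered air range, and libraries 4 and 5 were again highest. Its log2 fold change was 0.56 ± 0.17 (standard error, edgeR adjusted p = 0.101), and 0.26 without aerosol libraries 4 and 5 (edgeR adjusted p = 0.349). There were 1.08, 1.08, 0.747, 0.811 and 0.632 UPF3A counts per UPF3B count in aerosol libraries 1 to 5, against 1.22, 0.942, 1.28, 1.17 and 1.01 in filtered air libraries 1 to 5. The mean log2 ratio differed by -0.39, and this did not pass (exact two-sided permutation test, p = 0.0635, adjusted p = 0.0635). Without single libraries the ratio passed in 2 of 10 cases (exact permutation adjusted p down to 0.0397). Over all alternatives its difference came as near to 0 as -0.23. UPF3A has 3 annotated pseudogenes with at most 49 counts in any library, and summing their counts with its own left its log2 fold change at 0.56.

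**Figure D2:**
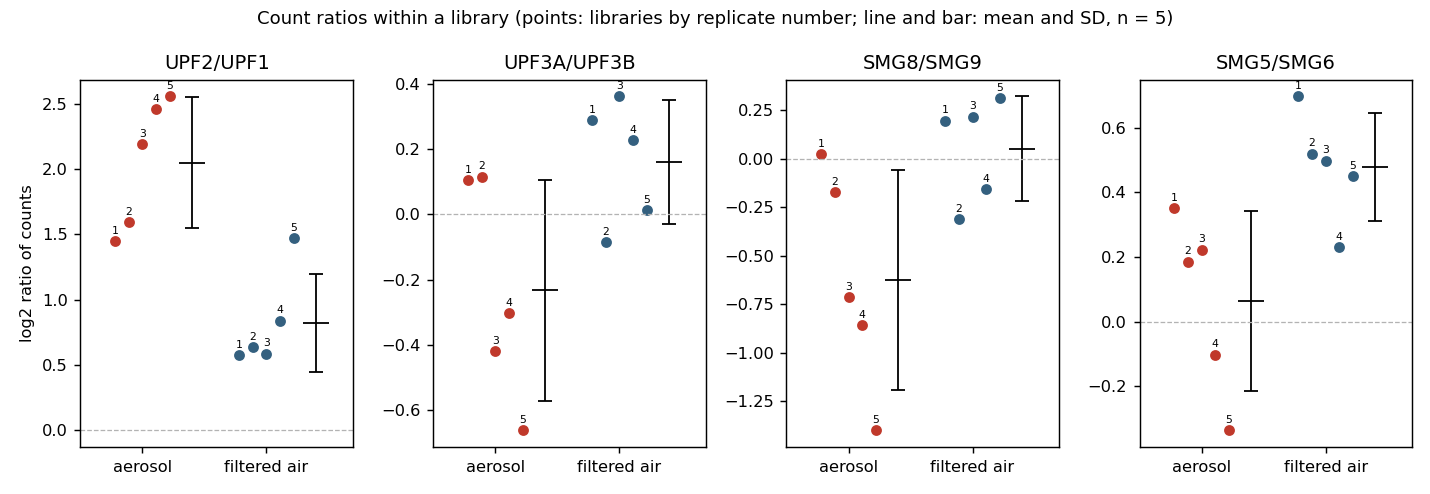
Log2 ratio of the counts of 2 factors within a library (y axis, a scale for each panel) in the 5 aerosol libraries (left, red) and the 5 filtered air libraries (right, blue), with replicate numbers above the points and the mean and SD beside each group. The UPF2/UPF1 ratio is higher after the aerosol by 1.23, and the SMG5/SMG6 ratio is lower by 0.42. The other 2 ratios did not pass the test with all libraries.

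SMG1, the kinase that phosphorylates UPF1 (chromosome 16, 18804860 to 18926408), had 310, 346, 387, 312 and 362 CPM in aerosol libraries 1 to 5, against 269, 253, 250, 268 and 297 CPM in filtered air libraries 1 to 5. The groups did not overlap, and aerosol libraries 4 and 5 were not its extremes. SMG1 averaged 343 ± 33.1 CPM after the aerosol and 268 ± 18.6 CPM in filtered air (SD, n = 5 each), a log2 fold change of 0.36 ± 0.09 (standard error, edgeR adjusted p = 0.0502). Without aerosol libraries 4 and 5 the fold change was as large, 0.37 (edgeR adjusted p = 0.0712). SMG1 passed under other scalings (edgeR adjusted p = 0.0411 with RLE, 0.0246 with upper-quartile scaling), with limma-voom (adjusted p = 0.0443) and with DESeq2 (adjusted p = 0.00721), and had an edgeR adjusted p of 0.182 when scaled by library size alone.

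SMG1 has near-identical partial copies, and no source used here says how reads matching several copies were counted, so the SMG1 value and those of its copies are uncertain. All 7 annotated SMG1 pseudogenes passed the low-count filter, and 2 of them rose, against 1.62% of all genes tested. SMG1P1, the copy with the most counts, had 127 ± 8.58 CPM after the aerosol and 86.3 ± 9.91 CPM in filtered air (SD, n = 5 each), and rose by 0.56 ± 0.10 on the log2 scale (standard error, edgeR adjusted p = 0.0149). SMG1P5 had 24.2 ± 7.14 CPM after the aerosol and 13.6 ± 1.71 CPM in filtered air and rose by 0.83 ± 0.20 (edgeR adjusted p = 0.0457). For SMG1P1, SMG1P2 and SMG1P5 all aerosol libraries lay above all filtered air libraries, against 3.52% of all genes tested. The log2 fold changes of the 5 copies that did not pass lay between 0.52 and 0.98. Among these, without aerosol library 5 SMG1P4 was at 0.55 and SMG1P7 at 0.13, and without aerosol library 3 SMG1P6 was at 0.25. SMG1P2 passed without aerosol library 5 (edgeR adjusted p = 0.0474), without aerosol libraries 4 and 5 (0.0184), with upper-quartile scaling (0.0398), with the 1 CPM filter (0.0398) and with DESeq2 (adjusted p = 0.00593), which also called SMG1P3 (0.0271). The SMG1P1 call was lost without filtered air library 2 (edgeR adjusted p = 0.0524) and with library-size scaling (0.0616), and, of the 10 fits without a single library, the SMG1P5 call held in those without aerosol library 2 or 5 (up to 0.127 in the others). SMG1P5 also lost its call without aerosol libraries 4 and 5 (0.0502), with library-size scaling (0.103), without the low-count filter (0.0530) and under the replicate block (0.0547). When SMG1 and its 7 copies were summed into 1 row, the log2 fold change was 0.46 with an edgeR adjusted p of 0.00954. The copies held 38.9 to 45.7% of the summed counts in the aerosol libraries and 34.1 to 39.0% in filtered air.

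**Figure D3:**
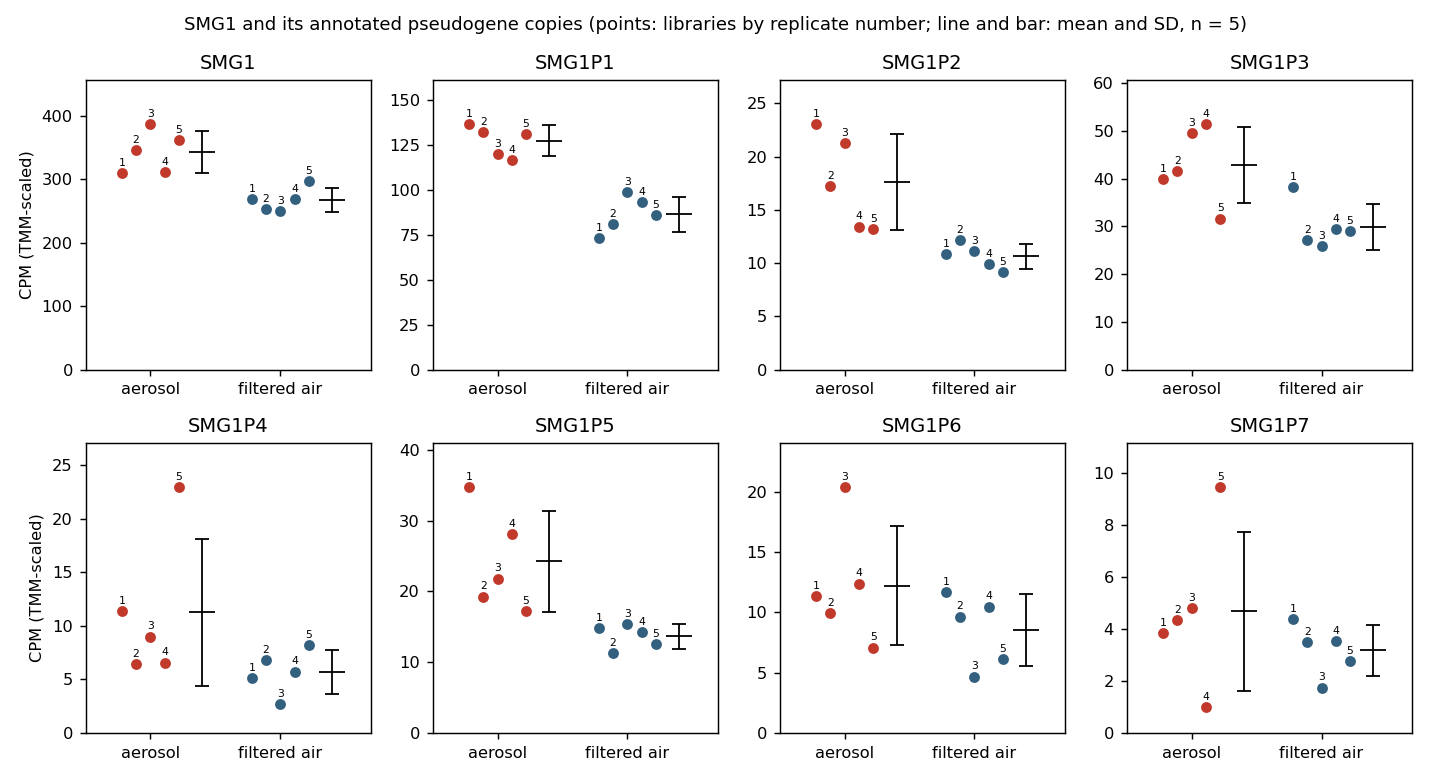
CPM of SMG1 and its 7 annotated pseudogene copies (y axis, from 0) in the 5 aerosol libraries (left, red) and the 5 filtered air libraries (right, blue), with replicate numbers above the points and the mean and SD beside each group. SMG1, SMG1P1, SMG1P2 and SMG1P5 have every aerosol point above every filtered air point.

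The inhibitory partners of SMG1 gave different values. SMG8 (chromosome 17, 59210035 to 59215230) had 54.6, 45.7, 32.4, 24.5 and 23.6 CPM in aerosol libraries 1 to 5, against 57.8, 45.1, 55.8, 48.3 and 48.6 CPM in filtered air libraries 1 to 5. Aerosol libraries 3, 4 and 5 lay below all filtered air libraries, while libraries 1 and 2 lay within their range. Its log2 fold change was -0.50 (95% interval -0.97 to -0.026, edgeR adjusted p = 0.248), and -0.22 without aerosol libraries 4 and 5 (edgeR adjusted p = 0.582).

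SMG9, which pairs with SMG8 (chromosome 19, 43727983 to 43754962), had 53.8, 51.4, 53.2, 44.4 and 62.2 CPM in aerosol libraries 1 to 5, against 50.4, 55.9, 48.0, 53.8 and 39.2 CPM in filtered air libraries 1 to 5. The groups overlapped widely, and the 95% interval of the log2 fold change ran from -0.18 to 0.38 around 0.10 (edgeR adjusted p = 0.763). SMG8 counts per SMG9 count were 1.02, 0.888, 0.609, 0.552 and 0.379 in aerosol libraries 1 to 5, against 1.15, 0.806, 1.16, 0.898 and 1.24 in filtered air libraries 1 to 5. The mean log2 ratio differed by -0.68, and after adjustment this did not pass (exact two-sided permutation test, p = 0.0397, adjusted p = 0.0529). Without single libraries the ratio passed in 2 of 10 cases (exact permutation adjusted p down to 0.0212). Over all alternatives its difference came as near to 0 as -0.34.

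Of the effectors, SMG5 (chromosome 1, 156249224 to 156291516) had 96.1, 96.3, 89.8, 69.7 and 59.1 CPM in aerosol libraries 1 to 5, against 121, 116, 107, 95.8 and 91.1 CPM in filtered air libraries 1 to 5. The groups overlapped, with filtered air libraries 4 and 5 at the level of aerosol libraries 1, 2 and 3. Its log2 fold change was -0.37 (95% interval -0.69 to -0.052, edgeR adjusted p = 0.201), and -0.18 without aerosol libraries 4 and 5 (edgeR adjusted p = 0.462).

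SMG6, the endonuclease that cuts the target near its stop codon (chromosome 17, 2059839 to 2303785), had 75.3, 84.7, 76.9, 74.8 and 74.6 CPM in aerosol libraries 1 to 5, against 74.7, 81.1, 76.0, 81.5 and 66.7 CPM in filtered air libraries 1 to 5. The groups overlapped, with aerosol library 2 above and filtered air library 5 below all libraries of the other group, and the 95% interval of the log2 fold change ran from -0.18 to 0.23 around 0.024 (edgeR adjusted p = 0.934). There were 1.28, 1.14, 1.17, 0.932 and 0.792 SMG5 counts per SMG6 count in aerosol libraries 1 to 5, against 1.62, 1.43, 1.41, 1.17 and 1.37 in filtered air libraries 1 to 5. The mean log2 ratio was lower by 0.42 after the aerosol, at 0.064 ± 0.278, against 0.480 ± 0.167 in filtered air (SD, n = 5 each, difference -0.42, exact two-sided permutation test, p = 0.0159, adjusted p = 0.0317). Without aerosol libraries 4 and 5 the difference was -0.23 (exact permutation p = 0.0893, adjusted p = 0.179), again with fewer possible assignments and a higher smallest possible p. Without single libraries it passed in 5 of 10 cases and was lost without aerosol library 5 or filtered air library 1, 2, 3 or 5.

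**Figure D4:**
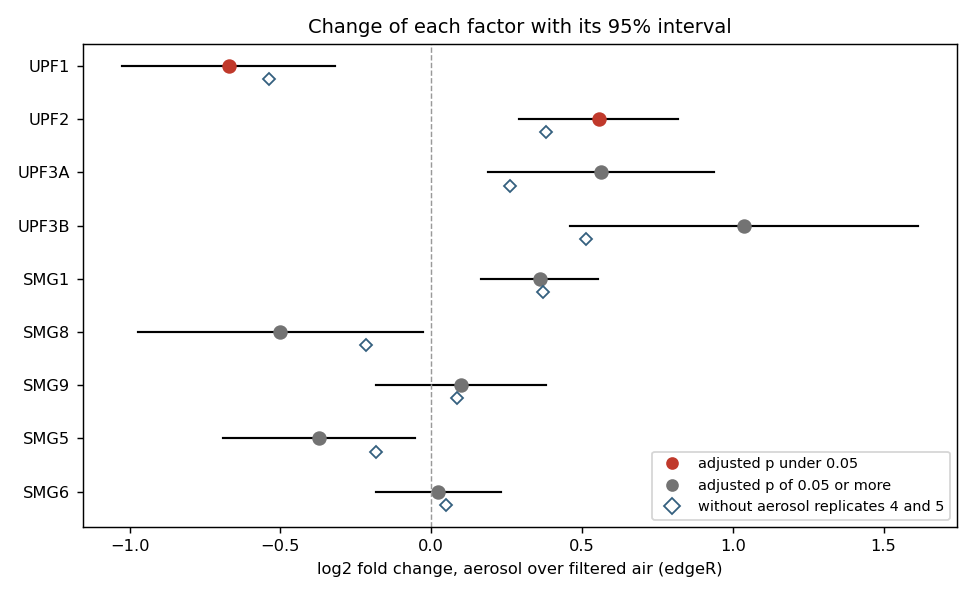
Log2 fold change of each decay factor, aerosol over filtered air (x axis), as a filled point with its 95% interval from edgeR, red where the adjusted p is under 0.05 and grey otherwise, with an open diamond for the value without aerosol libraries 4 and 5. UPF1 (-0.67) and UPF2 (0.56) are red, and only SMG1 and SMG6 have a diamond as far from 0 as their point or farther.

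Across the 10 libraries the factors fell into profiles that ran against each other. Likeness was measured as the root mean square difference of log2 CPM scaled to mean 0 and SD 1 over the 10 libraries, where smaller is more alike. Among the factors, UPF3A and UPF3B were nearest (0.299), followed by UPF2 and UPF3B (0.362). UPF1 and SMG5 were at 0.438, SMG5 and SMG8 at 0.461, and SMG1 was nearest to UPF2 at 0.572. SMG6 and SMG9 were nearest to each other, at a larger difference (0.866) than these pairs. UPF1 was farthest from UPF2 (1.86), and UPF3B from SMG8 (1.88). Among 10159 other protein-coding genes averaging 5 CPM or more, the nearest to UPF3B was ZC3H13 (0.0976), to UPF2 KMT2E (0.105) and to UPF3A ALMS1 (0.190). The nearest to UPF1 was PMVK (0.182), to SMG5 PGAP6 (0.137), to SMG8 LIMD1 (0.190), to SMG9 CEP250 (0.423) and to SMG6 ARL6 (0.489). These are descriptions over libraries that share 2 groups, depth and the differences of aerosol libraries 4 and 5. The 9 factors together had 860 to 968 CPM in the aerosol libraries and 764 to 838 CPM in filtered air, and as a share of all counts, without scaling, 0.0798 to 0.0952% in the aerosol libraries and 0.0803 to 0.0872% in filtered air.

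Lists of genes around these factors were read beside the share of all genes called, 3.01% with edgeR, 7.92% with DESeq2 and 3.34% with limma-voom. The share of all genes with an unadjusted p under 0.05 was 18.3%. Among 14 other factors linked to nonsense-mediated decay, 1 fell, RUVBL2, a helicase-like ATPase that assembles complexes of SMG1-type kinases, and none rose, with a median log2 fold change of 0.027. DESeq2 called 2 of the 14, limma-voom 1, and 6 had an unadjusted p under 0.05. All aerosol libraries lay below all filtered air libraries for 3 of the 14 (RUVBL1, RUVBL2 and EIF4E2), against 3.93% of all genes tested. They lay above for 1 (GIGYF2), against 3.52%. RUVBL1 was at -0.40 (edgeR adjusted p = 0.0638). RUVBL2 averaged 111 ± 33.8 CPM after the aerosol and 201 ± 24.0 CPM in filtered air (SD, n = 5 each), with all aerosol libraries below all filtered air libraries, and fell by 0.86 on the log2 scale (edgeR adjusted p = 0.0311). That call was lost without aerosol library 3 or 4, filtered air library 1, 2, 3 or 4, or under library-size scaling, with an edgeR adjusted p of up to 0.0909. None of 12 genes of the exon junction complex and its partners passed in either direction (median 0.12), where PNN, a partner at the edge of the complex, was at 0.98 ± 0.29 and the core subunit RBM8A at 0.35 ± 0.17 (log2 fold change and standard error). Without aerosol library 5 the log2 fold change was 0.65 for PNN and 0.18 for RBM8A, and without aerosol libraries 4 and 5 it was 0.39 and 0.027. PNN passed with DESeq2 (adjusted p = 0.00745) and without aerosol library 2 (edgeR adjusted p = 0.0446). In that list 4 of 12 had an unadjusted p under 0.05 in edgeR, DESeq2 called 2 and limma-voom 0. None of 12 translation termination and cap-binding factors passed (median 0.014), with the poly(A)-binding protein PABPC1 at -0.019 and the scaffold EIF4G1 at -0.40. EIF4G1 passed without aerosol library 1 (-0.52, edgeR adjusted p = 0.0309). In this list 2 of 12 had an unadjusted p under 0.05, and DESeq2 and limma-voom called 0.

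The enzymes that finish the decay were also without calls in the edgeR fit described above. None of 16 decapping and exonuclease genes passed (median -0.11), with the helicase DDX6 at -0.12 and the nuclear exonuclease XRN2 at -0.063. Nearest to the threshold were LSM3 at -0.42 (edgeR adjusted p = 0.0576) and XRN1 at 0.45 (edgeR adjusted p = 0.0606). Without single libraries edgeR called 0 to 1 of these 16 genes. None of 17 deadenylation genes passed (median 0.019), with the scaffold CNOT1 at 0.077 and the nuclease CNOT7 at -0.091. None of 24 genes of the RNA exosome and its adaptors passed (median -0.0062), with SKIC3, of the cytoplasmic adaptor, at 0.27 and the nuclear helicase MTREX at 0.12. An unadjusted p under 0.05 was found for 2 of 16 decapping, 4 of 17 deadenylation and 5 of 24 exosome genes, against 18.3% of all genes tested. DESeq2 called 2, 1 and 1 genes of these lists, and limma-voom 0 in each, against 7.92% and 3.34% of all genes tested.

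Known coding targets of the pathway and short-lived noncoding genes did not move as 1 group. Of 28 small nucleolar RNA host genes and related short-lived noncoding genes, 26 passed the low-count filter, 6 rose and none fell. The median log2 fold change was 0.12 over the 26, and over all genes tested 1.62% rose and 1.39% fell. DESeq2 called 7 of the 26, limma-voom 6, and 9 had an unadjusted p under 0.05, against 7.92%, 3.34% and 18.3% of all genes tested. The 6 that rose were SNHG5 (1.91), SNHG3 (1.16), SNHG1 (1.14), SNHG12 (1.14), ZFAS1 (0.90) and GAS5 (0.66). Of the 26, 17 lay above 0 and 9 below. The genes with an unadjusted p under 0.05 included SNHG29, which was below 0 (-0.39). GAS5, a host RNA long known to be degraded by the pathway, averaged 100.4 ± 9.55 CPM after the aerosol and 63.8 ± 4.73 CPM in filtered air (SD, n = 5 each, edgeR adjusted p = 0.00801). The calls of SNHG3, SNHG1, GAS5 and SNHG5 held without each single library. Of 29 protein-coding mRNAs with a known target isoform, 3 fell, RPS9 (-0.73), RPL3 (-0.44) and RPL12 (-0.46), and none rose, with a median of -0.18. In this list DESeq2 called 6, limma-voom 4, and 16 of 29 had an unadjusted p under 0.05, against the same shares of all genes tested. RPS9, RPL3 and RPL12 encode ribosomal proteins, and gene counts do not separate their target isoforms from the main mRNA. Without single libraries the call of RPS9 held in 10 of 10 cases, that of RPL3 in 6 and that of RPL12 in 5. The edgeR adjusted p reached 0.0617 for RPL3 (without filtered air library 3) and 0.0839 for RPL12 (without filtered air library 4). The calls of RPL3 and RPL12 were also lost after removal of the span trend (0.154 and 0.276). That of RPL12 was lost with upper-quartile scaling (0.0811) and among protein-coding genes (0.0576). Of the 29, 12 lay above 0 and 17 below. Nearest to the threshold were RPL10A at -0.36 (edgeR adjusted p = 0.0553) and TRA2B at 0.61 (edgeR adjusted p = 0.0920). The splicing factor genes SRSF2, SRSF3, SRSF7, TRA2B, HNRNPDL and RBM39 lay between 0.18 and 0.61, and none passed in edgeR. The stress factor ATF4, a target through its upstream reading frames, was at -0.18 ± 0.08, and its relatives ATF3 and DDIT3 were at 1.24 ± 0.40 and 0.090 ± 0.330, as were the growth arrest genes GADD45A and GADD45B at 0.52 ± 0.23 and 0.36 ± 0.22 (standard errors), none of which passed. Whether the values of the decay factors and those of the genes in these 2 lists are connected was not tested.

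**Figure D5:**
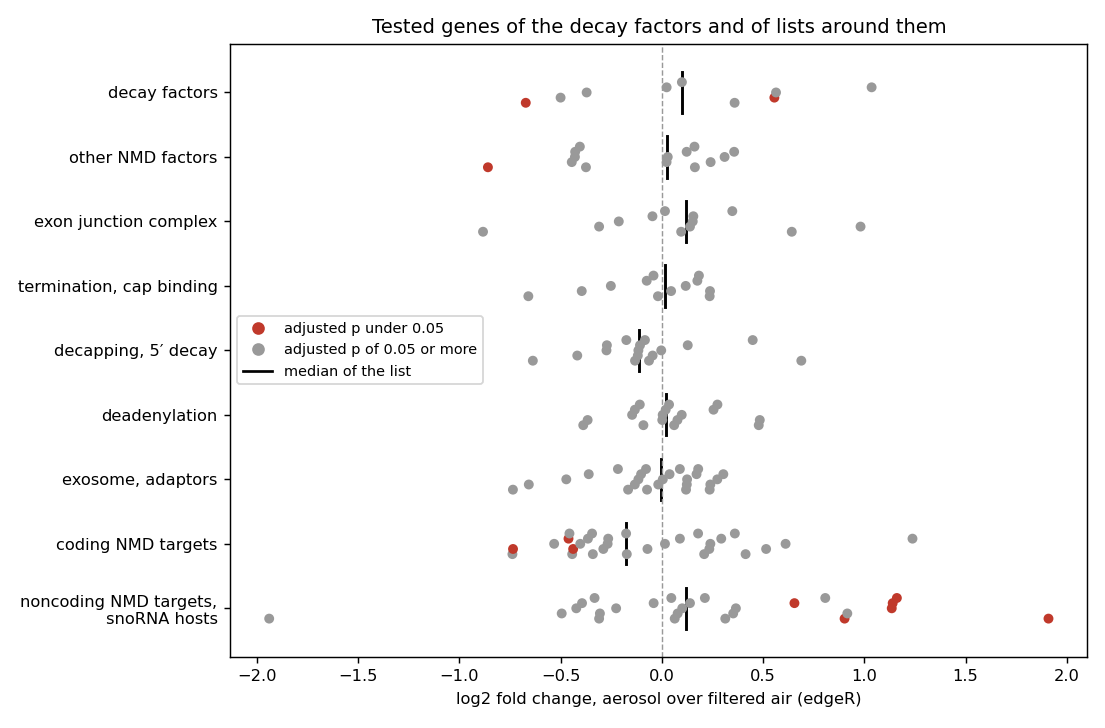
Log2 fold change, aerosol over filtered air (x axis), of each tested gene of the 9 decay factors and of 8 lists around them (rows), red where the edgeR adjusted p is under 0.05 and grey otherwise, with a black line at each list's median. Red points lie below 0 for UPF1, RUVBL2 and 3 coding targets, and above 0 for UPF2 and 6 small nucleolar RNA host genes or related noncoding genes.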

How the data were processed

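Messenger RNA libraries of 10 AC16 samples (5 e-cigarette aerosol, 5 filtered air) were used, and the 10 miRNA samples were not analysed here. The deposited files give 1 whole-number count per Ensembl gene, and HISAT, DESeq 1.8.3, featureCounts 1.5.0-p3 and hg38 appear, without roles, in the submitters' processing notes. Strand setting and annotation release: not given in the sources used here. Reads of overlapping or antisense genes may therefore be mixed. Per the labels, a SMARTER mRNA kit was used.

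Counts were tested with edgeR 4.0.16 (R 4.3.3; TMM scaling, filterByExpr, robust quasi-likelihood F test, group as the only term) on 20166 genes. Every adjusted p of a gene is from this fit unless limma 3.58.1 (voom) or DESeq2 1.42.0 is named. The common biological coefficient of variation was 0.602. Standard errors were derived from fold changes and F statistics. Ratios of 2 factors were compared by exact permutation of libraries. The fit was checked on simulated counts. No 2 replicates agreed within sampling noise (lowest chi-square per degree of freedom 59.0). Gene spans and promoters came from RefSeq (GRCh38.p14), and symbols from a table matching 58207 of 58735 identifiers. At these counts the precision is set by the spread between libraries.

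The factors and lists were chosen with earlier results of these data known. Named genes were all factors and SMG1 and UPF3A copies and, per list, up to 4 past the threshold with the smallest p, otherwise the 2 with the highest CPM. The gene nearest to SMG1 is not reported here. SNHG12, SNHG29, ZFAS1, ATF4, ATF3, DDIT3, GADD45A, GADD45B, FAP, VIM, KRT18, LSM3 and XRN1 were named after their values were seen. So were RPL10A, TRA2B, SRSF2, SRSF3, SRSF7, HNRNPDL, RBM39, RUVBL1, EIF4E2 and GIGYF2. Alternatives were other scalings, tests, filters and thresholds, the replicate number as a block, libraries left out, and, added after seeing the data, the 16920 tested genes with a genomic span, with and without removal of a trend on span.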

Additional observations from a re-analysis of the deposited data

Results flagged for a closer look

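Values within a group were examined for 1 library far from the other 4, over 78 groups of 5, in which chance flags about 1 in 20. There were 6 such values. Among the decay factors SMG6 was flagged, with 84.7 CPM in aerosol library 2 against 74.6 to 76.9 CPM in the other aerosol libraries. SMG1P3, a copy of SMG1, had 38.2 CPM in filtered air library 1 and 26.0 to 29.4 CPM in the others. EIF4G1 had 728 CPM in aerosol library 1, against 493 to 511 CPM in the other aerosol libraries, and 928 CPM in filtered air library 2, against 631 to 704 CPM in the other filtered air libraries. SNHG1 had 70.9 CPM in filtered air library 5, the others 41.5 to 49.5 CPM, and SNHG5 had 10.2 CPM in filtered air library 2, the others 12.9 to 13.8 CPM.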

How the results depend on the processing

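The count of changed factors, 2 of 9, was 1 with library-size scaling, 5 with DESeq2 (UPF1, UPF2, UPF3A, UPF3B and SMG1, with 7.92% of all genes called), 4 with a filter of 1 CPM in 5 libraries, 0 at an adjusted p under 0.01, 4 under 0.1, 0 without aerosol libraries 4 and 5 together, and 1 (UPF2) after removal of the span trend. It ranged from 0 to 4 without single libraries, where 0.879 to 3.64% of all genes were called. The count over all genes, 608, was 1598 with DESeq2, 87 and 1213 at an adjusted p under 0.01 and 0.1, 353 after removal of the span trend, and 183 to 757 without single libraries. By scaling, the calls were 362 higher and 235 lower with RLE, 482 and 171 with upper-quartile, and 244 and 318 with library-size scaling. Over all 8 lists the count of 10 was 21 with DESeq2, 16 at an adjusted p under 0.1, 4 among protein-coding genes, where the noncoding genes are left out, and 7 to 12 without single libraries. Without single libraries the log2 ratios differed by 1.10 to 1.39 (UPF2/UPF1), -0.49 to -0.32 (SMG5/SMG6), -0.84 to -0.48 (SMG8/SMG9) and -0.48 to -0.29 (UPF3A/UPF3B), and without aerosol libraries 4 and 5 by 0.92 and -0.23 for UPF2/UPF1 and SMG5/SMG6. The cause of these differences between settings was not tested.

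Deviations of libraries with the same replicate number correlated at 0.0078 to 0.053, and 3 of 5 aerosol libraries correlated best with their own number. Whether the numbers pair the samples cannot be told from these values. With the replicate block in edgeR 450 genes and the same 2 factors passed, and SMG1P5 did not. In a paired exact sign-flip test over the replicate numbers, whose smallest p is 0.0625, the ratio differences of 1.23 and -0.42 (UPF2/UPF1 and SMG5/SMG6) had an adjusted p of 0.125.

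Values near 0 changed sign. SMG6 was at -0.069 with library-size scaling, -0.0043 without a filter and -0.084 after removal of the span trend, and between -0.024 and 0.045 without single libraries. PABPC1 was at 0.0091 with RLE and DESeq2, 0.065 with upper-quartile scaling, 0.027 with the 1 CPM filter, 0.041 among protein-coding genes, 0.0086 among those with a span and 0.13 once its trend was removed, and between -0.074 and 0.053 without single libraries. CNOT7 was at 0.032 after that removal and between -0.19 and 0.094 without single libraries. XRN2 was at 0.022 with upper-quartile and CNOT1 at -0.022 with library-size scaling, and DDX6 and MTREX were at 0.026 and -0.0030 without aerosol libraries 4 and 5.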
